A study of Macaca mulatta with 34 samples.

Results

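PAX5, MS4A1, CD79B, CD72, IRF4, IGHM, JCHAIN and TNFSF13B are genes of B cells and plasma cells, and their RNA was followed in the deep cerebellar nuclei (DCN) of rhesus macaques. They were chosen by symbol, and each symbol matched 1 Ensembl macaque gene identifier, so the set is 8 of the 34847 identifiers in the DCN count tables, 24009 of which have a symbol. The DCN are the output nuclei of the cerebellum, and every animal received its treatment there by an injection guided by magnetic resonance imaging. Study 1 addressed the toxicity of AAV.miS1, an adeno-associated virus (AAV) vector with the miS1 RNA interference cargo, with 6 libraries from AAV.miS1 animals and 4 from vehicle animals. Study 2 addressed the immune response to other cargo designs and has 3 libraries in each of 4 groups. Its control group received empty capsid, the AAV protein shell without cargo. The other 3 groups received AAV with a cargo labelled StufferOnly, miSCA7Stuffer or intmiS1, where stuffer is filler sequence. All 4 groups of Study 2 thus received capsid, and no Study 2 group received vehicle alone. Each of the 22 libraries carries an animal identifier of its own. The sources used here do not give age, sex, dose or time after injection.

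PAX5 is the transcription factor that sets and keeps B cell identity, and MS4A1 (the surface protein CD20), CD79B (a signalling chain of the B cell receptor) and CD72 (an inhibitory coreceptor) are surface proteins of the lineage. When a B cell is activated, IRF4 drives it towards the plasma cell, which shuts PAX5 down and secretes antibody: IGHM encodes the heavy chain of IgM, and JCHAIN the joining chain that links IgM or IgA into polymers. TNFSF13B encodes BAFF, a cytokine that keeps B cells alive and is made mainly by myeloid cells. Healthy brain tissue holds few B lineage cells, and in inflamed brain they gather around vessels and in the meninges. IRF4 is also expressed by activated T cells and some myeloid cells, so it does not mark the lineage alone. In bulk tissue, more cells of a type and more RNA per cell cannot be told apart.

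Depth differed between the sets. Study 1 libraries held 2049685 to 4810852 counts in genes, apart from vehicle replicate 2 with 87741, in which 1 read is worth 11.4 counts per 1000000 (CPM). Study 2 libraries counted with featureCounts held 20978241 to 39792653, and intmiS1 replicates 1 and 2, counted with STAR, held 5169866 and 4858179. All 15 cerebellar neuron markers and all 8 glia markers had reads in every group. Values below are CPM over the counts in genes after scaling of library sizes within each study, and they compare libraries for a given gene, not genes with each other. A gene was called where its adjusted p was under 0.05 in edgeR's quasi-likelihood test, with Benjamini-Hochberg adjustment over all genes tested.

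In Study 1 the B lineage genes were higher after AAV.miS1, unevenly between animals. Of the 6 genes that passed the filter on low counts, 5 were called higher than in vehicle: PAX5, CD72, IRF4, JCHAIN and TNFSF13B. Of these, PAX5, CD72, IRF4 and TNFSF13B passed the filter through the AAV.miS1 libraries alone. Among all 13383 genes tested, 7.22% were called higher and 7.50% in either direction. IGHM varied widely between animals and was not called, and MS4A1 and CD79B had too few counts to be fitted. For 5 of the 8 genes (PAX5, CD72, IRF4, MS4A1 and TNFSF13B) the lowest AAV.miS1 library was above the highest vehicle library, which was true of 7.47% of the genes tested, and for 0 of the 8 was it the other way round (2.88% of the genes tested). All 5 had 0 counts in the shallow vehicle replicate 2, which allow up to 34.2 CPM (3 counts, unscaled, counting error only). That library thus cannot show whether the groups overlapped.

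**Figure D1:**
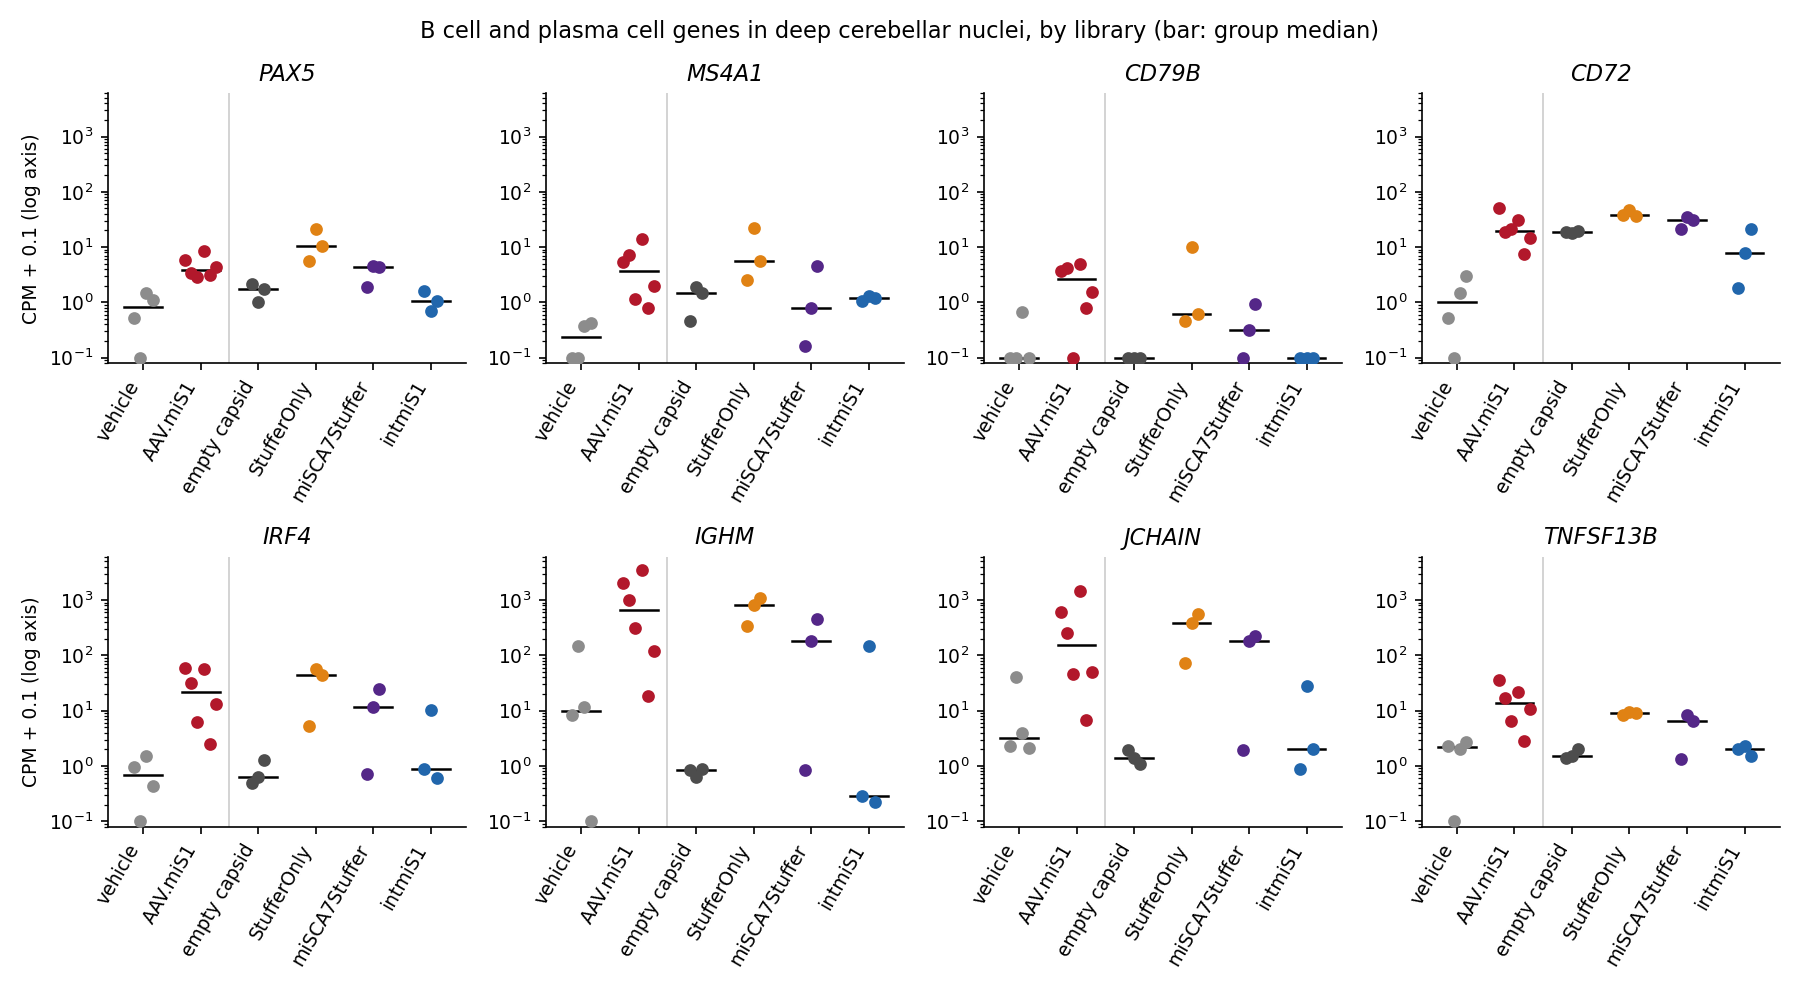
CPM plus 0.1 of the 8 genes on a log axis, with 1 point per library and a bar at the group median. The grey line parts Study 1 (vehicle, AAV.miS1) from Study 2. IGHM and JCHAIN span the widest range, from 0 to 3548 CPM for IGHM, and 1 miSCA7Stuffer library lies with the empty capsid libraries while 1 intmiS1 library lies above them for IGHM, JCHAIN and IRF4.

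PAX5 measured 0.43, 0, 1.40 and 0.99 CPM in vehicle replicates 1 to 4, and 2.83 (lowest), 3.81 (median) and 8.30 (highest) CPM in AAV.miS1. The measured values did not overlap, with the limit of vehicle replicate 2 given above. The log2 fold change was 2.22 ± 0.52 (SE, edgeR adjusted p = 0.0336). CD72 measured 0.43, 0, 1.40 and 2.97 CPM in vehicle and 7.44, 19.8 and 50.4 CPM (lowest, median, highest) in AAV.miS1. It differed by a log2 fold change of 3.85 ± 0.69 (SE, adjusted p = 0.0275), again without overlap of the measured values and with the same limit. The B cell surface gene MS4A1 had no count in vehicle replicates 1 and 2 and 1 count each in replicates 3 and 4 (0.28 and 0.33 CPM), against 0.68, 3.61 and 14.2 CPM in AAV.miS1. Its mean was 4.91 CPM higher in AAV.miS1 (exact two-sided permutation p = 0.0429, where 6 against 4 libraries allow 0.00476). Without any 1 of the 10 libraries that exact p was 0.0556 to 0.131. CD79B, the receptor chain, had 2 counts in vehicle replicate 3 (0.56 CPM) and none in the other vehicle libraries. In AAV.miS1 it ranged from 0 in replicate 3 to 4.82 CPM in replicate 4 with a median of 2.53, a mean difference of 2.31 CPM (exact two-sided permutation p = 0.0571). Neither of these 2 exact p-values is adjusted for other tests.

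IRF4, the factor that turns activated B cells towards antibody secretion, measured 0.86, 0, 1.40 and 0.33 CPM in vehicle and 2.37, 21.9 and 58.4 CPM (lowest, median, highest) in AAV.miS1. The log2 fold change was 4.94 ± 1.14 (SE, edgeR adjusted p = 0.0316). The measured values did not overlap, with the limit of vehicle replicate 2 given above. The antibody genes had the largest fitted changes and the largest spread. IGHM measured 8.17, 144.5, 11.5 and 0 CPM in vehicle replicates 1 to 4. In AAV.miS1 replicates 1 to 6 it measured 2011, 989, 311, 3548, 18.6 and 121.4 CPM. The 144.5 CPM rest on 14 counts in the shallow vehicle library, and that library overlapped AAV.miS1 replicates 5 and 6. The 0 in vehicle replicate 4 allows up to 1.01 CPM (3 counts, unscaled, counting error only). The log2 fold change of IGHM was 6.23 ± 1.92 (SE, edgeR adjusted p = 0.0711). JCHAIN measured 2.15, 41.3, 3.91 and 1.98 CPM in vehicle, of which the 41.3 is 4 counts in the shallow library. In AAV.miS1 it measured 602, 257.7, 46.7, 1479.6, 6.77 and 49.8 CPM in replicates 1 to 6, so that replicate 5 alone fell below the highest vehicle value. The log2 fold change of JCHAIN was 6.77 ± 1.78 (SE, edgeR adjusted p = 0.0452).

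TNFSF13B, the BAFF gene, measured 2.15, 0, 1.96 and 2.64 CPM in vehicle and 2.71, 13.6 and 35.4 CPM (lowest, median, highest) in AAV.miS1. Every AAV.miS1 library measured above every vehicle library, replicate 5 by little, with the limit of vehicle replicate 2 given above. The log2 fold change was 2.81 ± 0.73 (SE, edgeR adjusted p = 0.0435). The same animals were high or low for most of the genes: AAV.miS1 replicates 1 and 4 held the 2 highest values of PAX5, CD72, IRF4, IGHM, JCHAIN and TNFSF13B. AAV.miS1 replicate 5 held the lowest value of CD72, IRF4, IGHM, JCHAIN, MS4A1 and TNFSF13B.

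The Study 1 calls rested on few control libraries. Without any 1 of the 4 vehicle libraries, or without AAV.miS1 replicate 4, edgeR called 0 of the genes, and without AAV.miS1 replicate 2 it called 1 (CD72; 3.83% of all genes), while without replicate 5 it called 6, IGHM included (17.3% of all genes). The share of unmapped reads was 9.56%, 26.7%, 24.3% and 31.4% in vehicle replicates 1 to 4 and 9.23% to 21.3% in AAV.miS1. With a share over 15% as a covariate 0 members were called, beside 1.11% of all genes, with log2 fold changes of 2.12 (PAX5) to 4.51 (JCHAIN). The 5 libraries over 15% unmapped were AAV.miS1 replicates 5 and 6 and vehicle replicates 2 to 4. Within them 0 of the 3 that could be fitted, CD72, IGHM and JCHAIN, were called, beside 0.923% of all genes.

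In Study 2 the B lineage genes were highest after StufferOnly, a group whose libraries held reads on the features named for a primary microRNA and an RNA interference cassette besides those on the filler, as given with the construct reads. Of the 8 genes, 6 were called higher than in empty capsid: PAX5, CD72, IRF4, IGHM, JCHAIN and TNFSF13B. Among all 20882 genes tested, 11.6% were called higher. All 3 StufferOnly libraries lay above all 3 empty capsid libraries for 8 of the 8 genes, which was true of 26.8% of the genes tested.

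PAX5 measured 2.08, 0.90 and 1.66 CPM in empty capsid replicates 1 to 3 and 5.58, 21.3 and 10.5 CPM in StufferOnly replicates 1 to 3. Its log2 fold change was 3.0 ± 0.58 (SE, edgeR adjusted p = 0.0200). MS4A1 measured 0.36, 1.81 and 1.39 CPM in empty capsid and 2.42, 21.7 and 5.53 CPM in StufferOnly, and was not called (log2 fold change 3.06 ± 1.30, adjusted p = 0.142). StufferOnly replicate 2 stood out for these B cell genes. CD79B had no count in the 3 empty capsid libraries and measured 0.36, 9.93 and 0.53 CPM in StufferOnly. Set against 3 counts summed over empty capsid, the most that 0 counts allow, its mean was at least 119.9-fold higher, which rests on StufferOnly replicate 2, since the bound without that library was 14.7-fold. edgeR did not call it (adjusted p = 0.0621). CD72 measured 18.3, 17.8 and 19.5 CPM in empty capsid and 37.4, 47.0 and 35.7 CPM in StufferOnly, a log2 fold change of 1.11 ± 0.20 (SE, adjusted p = 0.0188). That was the smallest of the 8 fitted differences, but the CD72 counts of these libraries may hold reads of either strand, as given with the strands below. The rank may thus not hold for reads of its own strand.

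IRF4 measured 0.39, 0.53 and 1.16 CPM in empty capsid and 5.19, 56.9 and 43.3 CPM in StufferOnly (log2 fold change 5.66 ± 1.38, edgeR adjusted p = 0.0303). IGHM measured 0.73, 0.53 and 0.80 CPM in empty capsid and 334.6, 799 and 1075 CPM in StufferOnly. With a log2 fold change of 10.05 ± 1.95 (SE, adjusted p = 0.0200), the IgM heavy chain had the largest difference of the genes whose controls had reads. JCHAIN measured 1.85, 1.32 and 0.96 CPM in empty capsid and 73.6, 376.7 and 557.6 CPM in StufferOnly (log2 fold change 7.92 ± 1.64, adjusted p = 0.0216). TNFSF13B measured 1.30, 1.43 and 1.89 CPM in empty capsid and 8.18, 9.28 and 8.88 CPM in StufferOnly. Its log2 fold change was 2.51 ± 0.59 (SE, adjusted p = 0.0278), and the 3 StufferOnly animals were nearly alike for BAFF (8.78 ± 0.56 CPM, SD, n = 3) while IRF4 ranged from 5.19 to 56.9 CPM between the same animals. The calls, of these genes and of all genes, rested on each control library. Without any 1 of the empty capsid libraries, or without StufferOnly replicate 2 or 3, edgeR called 0 of the 8 genes and at most 0.247% of all genes. Calls were thus lost among all genes, not among these alone. Without StufferOnly replicate 1 edgeR called 6 of the 8 (12.1% of all genes in either direction). With only these 2 groups in the fit it called 8, and 31.5% of all genes.

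The miSCA7Stuffer group split. Replicate 1 held control levels of most of the genes, and replicates 2 and 3 held high antibody gene levels. edgeR called 0 of the 8 genes against empty capsid, with adjusted p from 0.134 to 0.822, and 0.00479% of the 20882 genes tested (1 gene) were called higher. At an unadjusted p under 0.05 edgeR counted 5 of the 8 genes, beside 23.0% of all genes, and DESeq2 called 5 (CD72, IRF4, IGHM, JCHAIN and TNFSF13B), beside 11.2% of all genes. All 3 miSCA7Stuffer libraries lay above all empty capsid libraries for 1 of the 8 genes, CD72, against 12.2% of the genes tested.

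IGHM measured 0.73, 182.5 and 451.0 CPM in miSCA7Stuffer replicates 1 to 3, beside 0.53 to 0.80 CPM in empty capsid. JCHAIN measured 1.83, 183.8 and 221.0 CPM, and IRF4 0.61, 11.5 and 25.0 CPM. Replicate 1 lay within the empty capsid range for all 3 of these genes, and the other 2 libraries lay above it. PAX5 measured 1.83, 4.42 and 4.20 CPM, and CD72 21.2, 34.2 and 30.8 CPM. TNFSF13B measured 1.22, 8.27 and 6.49 CPM, replicate 1 lying just below the lowest empty capsid library. MS4A1 measured 0.06, 0.71 and 4.38 CPM and CD79B 0, 0.21 and 0.82 CPM, so these B cell surface genes were within or near the control range in replicate 2, where the antibody genes were high. Without replicate 1, edgeR called 5 of the 8 genes higher: CD72 (log2 fold change 0.78), IRF4 (4.70), IGHM (8.80), JCHAIN (7.15) and TNFSF13B (2.23), when 32.4% of all genes tested were called in either direction.

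For intmiS1 against empty capsid edgeR called 0 of the 8 genes and 0 of 21501 genes tested (0% in either direction). At an unadjusted p under 0.05 edgeR counted 1 of the 8 genes, IGHM, and 1832 of all genes, and DESeq2 called 0 of the 8 and 52 of all genes. For 0 of the 8 genes did the groups separate, against 9.52% of the genes tested with every intmiS1 library above and 10.7% with every one below. The 3 animals differed among themselves. IGHM measured 0.19, 148.4 and 0.13 CPM in intmiS1 replicates 1 to 3, JCHAIN 0.76, 27.3 and 1.92 CPM, and IRF4 0.76, 10.2 and 0.50 CPM. Replicate 2 was thus the high library for the antibody genes and for IRF4, with 755 counts of IGHM against 1 in replicate 1 at a similar depth. PAX5 measured 1.53, 0.59 and 0.94 CPM, MS4A1 0.95, 1.18 and 1.10 CPM, and TNFSF13B 1.91, 2.16 and 1.38 CPM, with no count of CD79B in any of the 3. PAX5 was lowest in replicate 2, and MS4A1 and TNFSF13B varied little among the 3 libraries. The fitted log2 fold changes against empty capsid were 6.14 ± 2.39 for IGHM (SE, edgeR adjusted p = 0.576) and 2.77 ± 1.53 for JCHAIN (adjusted p = 0.602), and that of IGHM was -2.29 without replicate 2. Replicates 1 and 2 were counted with STAR and replicate 3 with featureCounts, so the program is partly confounded with the group.

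**Figure D2:**
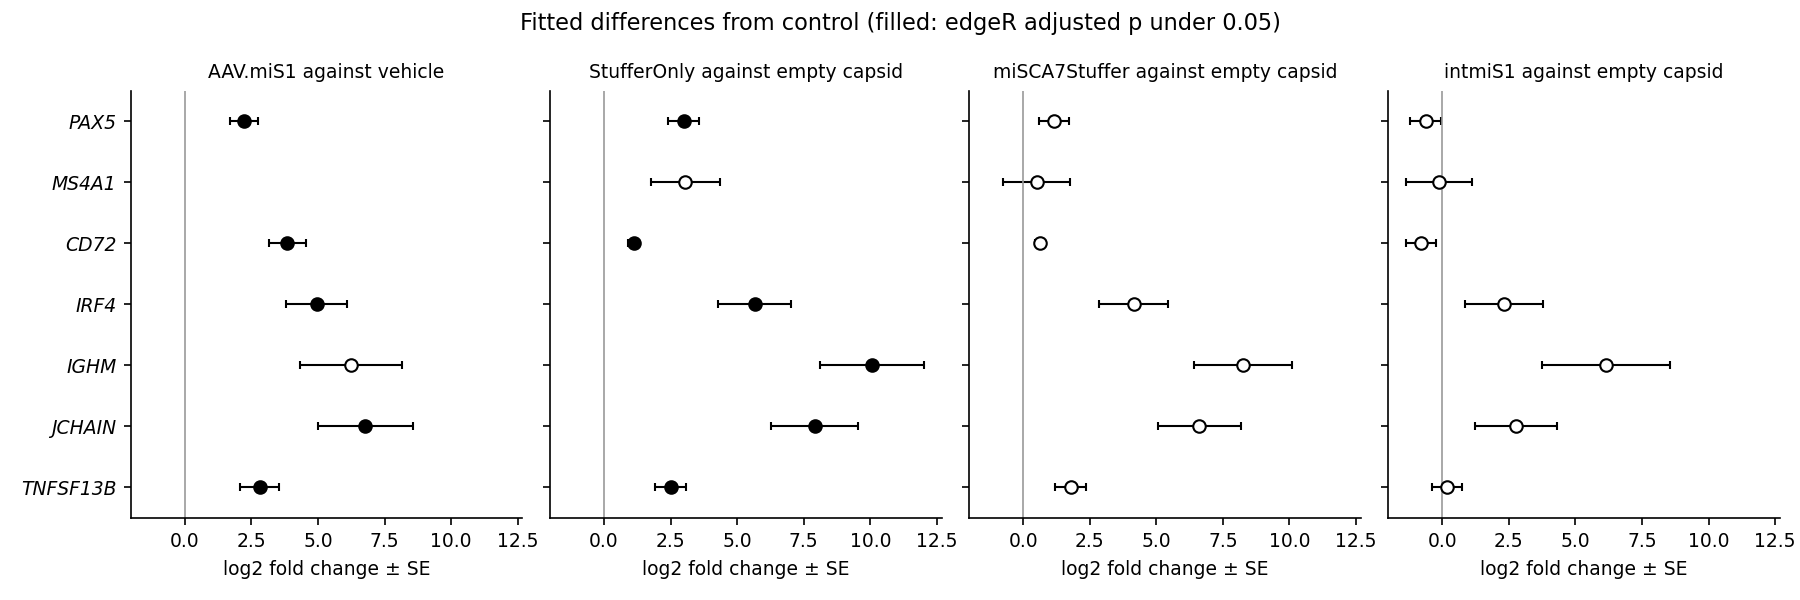
Fitted log2 fold changes with standard errors of 7 of the genes in each comparison with a control, filled where the edgeR adjusted p was under 0.05. CD79B is left out because the empty capsid group had no count of it, and MS4A1 could not be fitted in Study 1. The antibody genes IGHM and JCHAIN lie farthest to the right in every panel, and in the panels of miSCA7Stuffer and intmiS1 no symbol is filled.

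Set against StufferOnly, intmiS1 was lower for 2 of the 8 genes by edgeR, PAX5 (log2 fold change -3.62 ± 0.62, adjusted p = 0.0112) and TNFSF13B (-2.32 ± 0.57, adjusted p = 0.0285). Among all 21501 genes tested, 8.46% were called lower and 3.41% higher. All 3 intmiS1 libraries lay below all 3 StufferOnly libraries for 7 of the 8 genes, IRF4 being the exception, against 22.6% of the genes tested. CD72 is among the 7, but its reads may not have been counted alike in the 2 groups, as given with the strands below. JCHAIN (-5.14 ± 1.61, adjusted p = 0.0622), CD72 (-1.91 ± 0.58, adjusted p = 0.0557), IGHM (-3.91 ± 2.08, adjusted p = 0.235), IRF4 (-3.35 ± 1.40, adjusted p = 0.140) and MS4A1 (-3.18 ± 1.25, adjusted p = 0.118) were not called. DESeq2 called 5 of the 8 lower, beside 19.7% of all genes in either direction. Without intmiS1 replicate 1 or 2, edgeR called 0 of the 8, and without StufferOnly replicate 2 or 3 it called 1, PAX5 (1.99% and 3.57% of all genes).

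For miSCA7Stuffer against StufferOnly edgeR called 0 of the 8 genes and 0% of the 20882 tested. At an unadjusted p under 0.05 edgeR counted 2 of the 8 genes, PAX5 and CD72, and 2116 of all genes, and DESeq2 called PAX5 alone of the 8 and 2.28% of all genes. The fitted differences were all below 0, from -0.47 (CD72) to -3.43 (CD79B). All 3 miSCA7Stuffer libraries lay below all 3 StufferOnly libraries for PAX5 and CD72, 2 of the 8 genes, against 8.29% of the genes tested, and above them for 0 of the 8, against 6.29%. By group mean, StufferOnly came first and miSCA7Stuffer second in Study 2 for each of the 8 genes. Empty capsid and intmiS1 followed with ranges that overlapped for 7 of the genes and with no count in either for CD79B. The Study 2 comparisons share their control or StufferOnly libraries and are not independent.

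The differences between the studies were tested as differences of effects. For AAV.miS1 against vehicle minus StufferOnly against empty capsid, edgeR called 0 of the 8 genes and 0% of 16537 genes tested. At an unadjusted p under 0.05 it counted 1 of the 8, CD72 (2.80 ± 0.93 on the log2 scale), and 477 of all genes, and DESeq2 called 17 of all genes and 0 of the 8. For AAV.miS1 against vehicle minus intmiS1 against empty capsid, edgeR called 0 of the 8 and 0.00605% of the genes (1 gene) higher. At an unadjusted p under 0.05 it counted 4 of the 8, PAX5, CD72, MS4A1 and TNFSF13B, and 2819 of all genes. The fitted difference of effects was positive for the 7 genes with reads in both Study 2 groups, from 0.22 ± 3.01 for IGHM to 4.61 ± 0.95 for CD72 (adjusted p = 0.131). DESeq2 called CD72 alone of the 8 here, and 2.42% of all genes. These tests set different controls, depths and count programs against each other, and CD72 is also affected by the strand that was counted, as follows.

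CD72 was the gene whose reads lay mostly on the other strand. The libraries are directional, and the STAR tables give 1 column per strand, of which the reverse column holds the reads of a gene's own strand. For PAX5, CD79B, IRF4, IGHM, JCHAIN and TNFSF13B the forward column held at most 1.56% of the stranded reads in any group with STAR tables, apart from 2 forward beside 9 reverse PAX5 reads in vehicle. For CD72, 93.5% of the stranded reads were in the forward column in vehicle, 55.7% in AAV.miS1 and 85.2% in the 2 STAR intmiS1 libraries. The forward reads were 22.9 to 45.6 reads per 1000000 counts in genes (RPM, without further scaling) in vehicle. They were 26.9 to 37.3 RPM in AAV.miS1 and 27.5 and 27.8 in intmiS1. The 45.6 is 4 reads in the shallow vehicle replicate 2. The other vehicle libraries measured 22.9, 23.3 and 26.5 RPM, all below the lowest AAV.miS1 library. The reverse reads, which the Study 1 values above use, were 0 to 3.02 RPM in vehicle and 7.46 to 43.2 in AAV.miS1. In intmiS1 the reverse reads were 1.55 RPM in replicate 1 and 8.23 in replicate 2, the replicate with IGHM. The sources used here do not give the strand setting of featureCounts, so the 17.8 to 19.5 CPM of CD72 in empty capsid may hold reads of either strand. The same is true of StufferOnly and miSCA7Stuffer, so the CD72 fold changes between these groups may not be those of its own strand. The unstranded column, used for intmiS1, held 9 and 39 CD72 reads in replicates 1 and 2, close to the reverse column (8 and 40) and without most of the forward reads (142 and 135), whereas per the file headers featureCounts counted a read that overlaps several genes in each of them. Thus the CD72 values of intmiS1 replicates 1 and 2 may not hold the same reads as those of empty capsid, StufferOnly or any other featureCounts library. The 1.72, 7.67 and 21.1 CPM of intmiS1 replicates 1 to 3 come from 2 programs. Every comparison of CD72 with intmiS1 carries this limit. MS4A1 also had forward reads, 11.1% of its stranded reads in AAV.miS1, and 2 beside 2 reverse reads in vehicle.

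**Figure D3:**
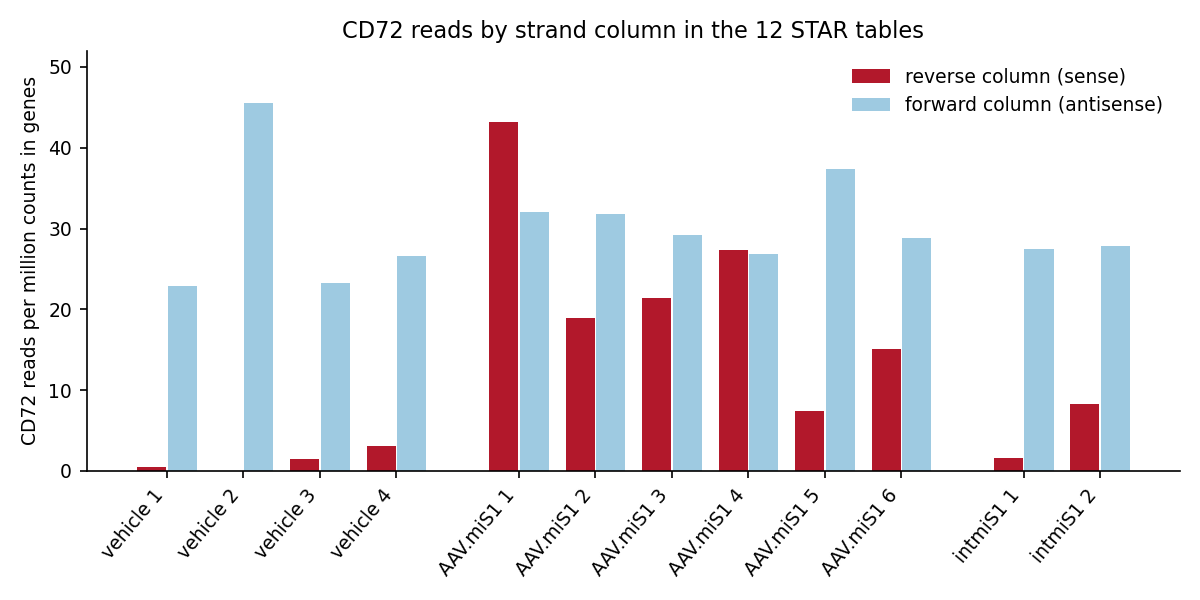
CD72 reads per 1000000 counts in genes in the 12 STAR tables, by strand column, with 1 pair of bars per library. The forward column stays between 22.9 and 45.6 in every library, while the reverse column is 0 to 3.02 in vehicle, 7.46 to 43.2 in AAV.miS1 and 1.55 and 8.23 in intmiS1. The forward value of 45.6 is 4 reads in the shallow vehicle replicate 2.

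The count ratio of the 2 antibody chains varied between libraries. In AAV.miS1 there were 0.150 to 0.417 JCHAIN counts per IGHM count. In StufferOnly replicates 1 to 3 the ratio was 0.220, 0.471 and 0.519, and in intmiS1 replicate 2 it was 0.184. miSCA7Stuffer replicate 2 had the highest ratio among the high libraries, 1.01, against 0.490 in replicate 3. The JCHAIN count depends on the column used. It was 2484 in the reverse and 1983 in the unstranded column in AAV.miS1 replicate 1, and 184 and 139 in intmiS1 replicate 2. IGHM hardly differed between columns, so ratios from AAV.miS1 (reverse), intmiS1 replicate 2 (unstranded) and featureCounts libraries are not strictly alike. In the Study 2 libraries with low IGHM, JCHAIN counts exceeded IGHM counts, with 71 against 28, 35 against 14 and 29 against 24 in empty capsid replicates 1 to 3, 60 against 24 in miSCA7Stuffer replicate 1, and 4 against 1 and 61 against 4 in intmiS1 replicates 1 and 3. In vehicle it was the other way round in replicates 1 to 3 (5 against 19, 4 against 14 and 14 against 41), and replicate 4 had 6 JCHAIN counts and no IGHM count. IGKC, the constant region of the kappa light chain, went the same way. It measured 2.63 to 3.78 CPM in empty capsid, 130.0, 1122 and 811 CPM in StufferOnly, 2.62, 510.2 and 787 CPM in miSCA7Stuffer, and 3.24, 109.7 and 4.06 CPM in intmiS1 replicates 1 to 3. Immunoglobulin constant genes resemble one another, and reads that fit several of them may have been split or dropped in counting.

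Construct reads stood beside the antibody genes in most libraries but not in all. In Study 2, construct reads per 1000000 counts in genes were 0.20 to 0.63 in empty capsid and 350.4, 626 and 247.7 in StufferOnly replicates 1 to 3. In miSCA7Stuffer they were 2.0 in replicate 1, the library with control levels of IGHM, and 350.2 and 258.4 in replicates 2 and 3. In intmiS1 they were 568, 649 and 45.0, so that replicates 1 and 2 had similar construct reads while IGHM was 0.19 and 148.4 CPM. In Study 1 they were 23.1, 586, 113.8, 107.6, 24.1 and 28.8 in AAV.miS1 replicates 1 to 6 and 0.34 to 11.4 in vehicle, where the 11.4 is 1 read. AAV.miS1 replicates 1 and 5 had nearly the same construct reads, with 2011 and 18.6 CPM of IGHM. The constructs were not counted against the same features in every library. In intmiS1, replicates 1 and 2 were counted on the feature named for the EF1a and ATXN1L intron construct (2935 and 3147 reads) and replicate 3 on another intronic miS1 feature (1440 reads), so its 45.0 cannot be set against the other two. The StufferOnly libraries held 9465, 10880 and 6189 reads on the filler feature, 151, 123 and 80 on the primary microRNA feature and 179, 159 and 104 on the RNA interference cassette feature. In miSCA7Stuffer replicates 2 and 3 the last 2 features held 141 and 83 and 303 and 160 reads, and in empty capsid 0 to 1. The feature named miS1 held no read in StufferOnly and 38 and 28 in miSCA7Stuffer replicates 2 and 3. It also held no read in any AAV.miS1 or intmiS1 library, the groups whose cargo is named for miS1. The filler, primary microRNA and cassette features likewise held no read in AAV.miS1. Reads on these features thus do not show which cargo a library carried. These features may share sequence, and what the microRNA reads of StufferOnly come from was not tested.

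**Figure D4:**
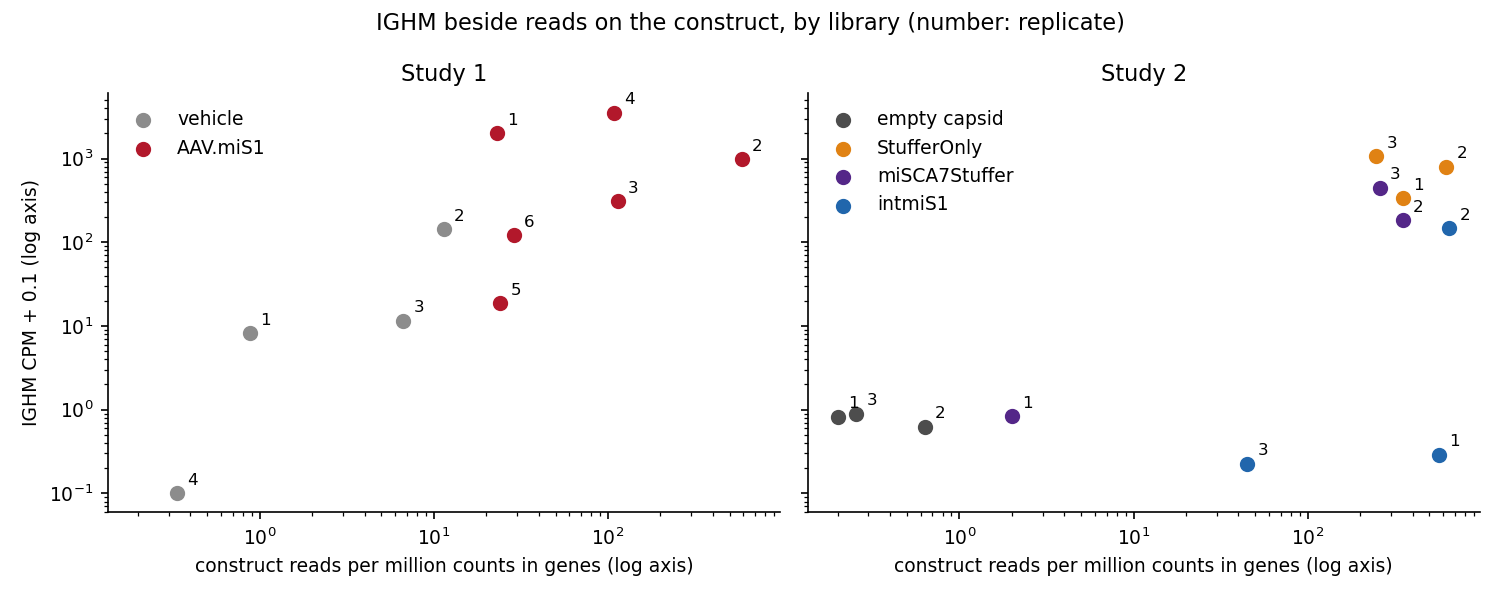
IGHM CPM plus 0.1 against construct reads per 1000000 counts in genes, both on log axes, with 1 point per library, labelled by replicate, in Study 1 (left) and Study 2 (right). miSCA7Stuffer replicate 1 lies next to the empty capsid libraries on both axes, whereas intmiS1 replicates 1 and 2 share their construct reads (568 and 649) and lie apart for IGHM (0.19 and 148.4 CPM). The construct reads of intmiS1 replicate 3 were counted on another feature.

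Some other B cell genes were higher too. Among all genes tested, 7.22% were called higher in AAV.miS1 and 11.6% in StufferOnly, and 8.46% lower in intmiS1 than in StufferOnly. In AAV.miS1, 9 of the 21 tested (of 40 with an identifier) were called higher and 0 lower, with a median log2 fold change of 1.23, beside 0.02 over all genes tested. The 4 with the smallest p were CD180, SPI1, CD37 and BTK, at log2 fold changes of 3.01, 3.43, 3.13 and 3.19 (edgeR adjusted p = 0.0275 for each), all of which macrophages and microglia express as well. FCRL2, FCRL3, FCRL4, FCRLA, BLK, STAP1 and TCL1A were among those with no count in any vehicle library, and TCL1A had none in AAV.miS1 either. In StufferOnly, 19 of 37 tested were called higher than in empty capsid and 0 lower (median log2 fold change 2.44, beside 0.02 over all genes). These took in genes known mainly from B cells, the second receptor chain CD79A (log2 fold change 5.76) and the kinase BLK (3.55), besides the 4 named above. In miSCA7Stuffer and in intmiS1 against empty capsid 0 of 37 were called by edgeR, with 17 and 3 at an unadjusted p under 0.05. Of all genes tested, 23.0% and 8.52% reached that unadjusted p in the same comparisons. Between intmiS1 and StufferOnly 11 of 37 were called lower, led by SPI1, PIK3AP1, CD83 and SWAP70 (log2 fold changes -2.74, -2.79, -2.51 and -0.90).

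Some plasma cell genes were higher as well. The shares of all genes were again 7.22% higher in AAV.miS1, 11.6% higher in StufferOnly and 8.46% lower in intmiS1 than in StufferOnly. In AAV.miS1, 3 of the 14 tested were called higher: SLAMF7, a surface receptor of plasma cells and also of natural killer cells and macrophages (log2 fold change 6.79 ± 1.27, edgeR adjusted p = 0.0275), PRDM1, the factor that installs the plasma cell programme (1.79 ± 0.45, adjusted p = 0.0394), and TENT5C (3.16 ± 0.82, adjusted p = 0.0435). XBP1, the factor of the secretory stress response, was just short of the threshold (1.32 ± 0.39, adjusted p = 0.0621). The median over the 14 was 1.35. In StufferOnly, 11 of 15 were called higher (median 1.47), among them SLAMF7 (8.74), CREB3L2 (1.29), DERL3 (1.47) and XBP1 (1.35). MZB1, a chaperone of antibody assembly, measured 0.18, 3.85 and 16.2 CPM in miSCA7Stuffer replicates 1 to 3 and 0.38, 3.54 and 0.25 CPM in intmiS1 replicates 1 to 3, highest in both groups in the library with the most IGHM. In the 3 comparisons miSCA7Stuffer or intmiS1 against empty capsid and miSCA7Stuffer against StufferOnly edgeR called 0 of 15, with 9, 0 and 3 at an unadjusted p under 0.05. The shares of all genes tested that reached it were 23.0%, 8.52% and 10.1%. In intmiS1 against StufferOnly 4 of 15 were called lower, DERL3 (-1.97), CREB3L2 (-1.0), SLAMF7 (-5.50) and SDC1 (-4.50).

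In the BAFF, APRIL and CD40 axis, which signals B cell survival and help, 1 of 5 genes tested was called higher in AAV.miS1, RELB, a transcription factor of the noncanonical NF-kB pathway (log2 fold change 2.67 ± 0.71, edgeR adjusted p = 0.0467). TRAF3, CD40 and MAP3K14 were not called, at 0.60, 1.18 and 0.50. Of all genes, 7.22% were called higher in AAV.miS1, 11.6% higher in StufferOnly and 8.46% lower in intmiS1 than in StufferOnly. In StufferOnly 6 of 9 were called higher, led by RELB (2.53), CD40LG, the T cell ligand of CD40 (3.28), the kinase gene MAP3K14 (0.53) and CD40 itself (1.45). In intmiS1 against StufferOnly RELB (-2.29) and CD40 (-1.49) were the 2 of 9 called lower. The receptors of BAFF were scarce: TNFRSF13C, the BAFF receptor, ranged from 0 to 3.06 CPM over the 22 libraries, and TNFRSF13B from 0 to 2.83.

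Of the B cell attractants and helper cytokines, 3 of 5 tested were called higher in AAV.miS1: CXCR4, a homing receptor (log2 fold change 3.63), CXCL10, an interferon-induced chemokine (5.65), and ICOS, a costimulatory receptor of T cells (4.32), with edgeR adjusted p of 0.0275, 0.0345 and 0.0481. CXCL13, the chemokine that draws B cells, had no count in vehicle or in empty capsid. Called higher over all genes were 7.22% in AAV.miS1 and 11.6% in StufferOnly, and called lower in intmiS1 than in StufferOnly 8.46%. In StufferOnly 7 of 12 were called higher, led by CXCR5, the receptor for CXCL13 (4.28), ICOS (6.79), IL7 (5.03) and CXCL10 (4.65). In intmiS1 against StufferOnly 2 of 13 were called lower, CXCR5 (-3.48) and CXCR4 (-3.22). In the comparisons of miSCA7Stuffer and intmiS1 with empty capsid edgeR called 0 in this list and in the axis of BAFF, with 7 and 1 here and 4 and 1 there at an unadjusted p under 0.05. Beside these counts, 23.0% and 8.52% of all genes tested reached that unadjusted p.

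Markers of other immune cells moved with these genes. Beside the counts that follow, 7.22% of all genes tested were called higher in AAV.miS1 and 11.6% in StufferOnly. Of the T cell markers, 5 of 11 tested were called higher in AAV.miS1 and 12 of 18 in StufferOnly, and their summed level was 53.7 to 86.0 CPM in vehicle, 74.1 to 848 in AAV.miS1, 14.3 to 70.7 in empty capsid and 228.6 to 365 in StufferOnly. Of the macrophage and microglia markers, 13 of 17 tested were called higher in AAV.miS1 and 14 of 17 in StufferOnly, with sums of 589 to 1703 CPM in vehicle, 1168 to 27904 in AAV.miS1, 520.1 to 600.3 in empty capsid and 6184 to 10215 in StufferOnly. CD8B, LCK and TRAT1 were the T cell markers with no count in vehicle, and no macrophage marker was at 0 there. miSCA7Stuffer replicate 1 had a macrophage sum of 454.4 CPM, against 5653 and 6281 in replicates 2 and 3. In intmiS1 the macrophage sums were 509, 825 and 585 CPM and the T cell sums 49.8, 41.9 and 58.8, so that in replicate 2, the library with IGHM, the T cell sum was the lowest of the 3. Of the dendritic cell markers, 2 of 4 tested were called higher in AAV.miS1 and 3 of 9 in StufferOnly, where 1 was lower. Of the neutrophil markers, 0 of 1 and 1 of 2 were called higher, and of the red blood cell markers 0 of 2 in StufferOnly. Neuron markers summed to 1822 to 2779.5 CPM in vehicle and 112.0 to 1563 in AAV.miS1, and CALB1 alone of 15 was called lower there. In Study 2 the same sum was 1370 to 1519 CPM in empty capsid, 541 to 998 in StufferOnly and 1034 to 1418 in intmiS1. In miSCA7Stuffer it was 2613 in replicate 1, the library with control levels of IGHM, and 445 and 305.5 in replicates 2 and 3. Gene by gene, edgeR called 0 of the 15 neuron markers against empty capsid in either stuffer group. The fitted change was above 0 for 6 of the 15 in StufferOnly and for 10 in miSCA7Stuffer, so the sums do not speak for each marker. MBP and MOBP were among the glia markers called lower in StufferOnly. The part of these cells in the result was not tested.

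The genes most like MS4A1 and JCHAIN across libraries were ranked by Pearson's r of log2 CPM, as a description. Over the 10 Study 1 libraries, JCHAIN was closest to IGKC (r = 0.993), followed by WARS1, RNASEH2B, SH3BP1 and EIF3F (r of 0.977 to 0.986), among 12495 genes. MS4A1 was closest to RPS4X (r = 0.974), ICOS, GZMK, GIMAP7 and GPR174, of which ICOS and GZMK are known from T cells. Over the 9 featureCounts libraries of Study 2 without intmiS1, JCHAIN was closest to SMARCC1 (r = 0.996), BRI3, SETDB2, ORAI1 and SGPP1, and MS4A1 to DCTD (r = 0.957), TNS3, CYLD, TES and KNTC1, among 13971 genes. The libraries share their groups and vary in depth, so a high r follows from any gene that is high in the same animals. Among the 8 genes themselves, r with JCHAIN in Study 1 was highest for IGHM (0.958) and lowest for PAX5 (0.692), and in the 9 Study 2 libraries highest for IGHM (0.988) and lowest for MS4A1 (0.673).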

How the data were processed

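Total RNA of 22 DCN libraries was analysed: 10 of Study 1 and 12 of Study 2, each from its own animal per the labels, so p-values measure spread between animals. The 12 small RNA libraries were not used here. The authors deposited read counts per gene. STAR 2.6.0c and DESeq2 are named in the submitters' processing notes, and per the labels' protocols libraries were directional and depleted of ribosomal RNA with reagents for human, mouse and rat. The sources used here do not give the genome build or annotation. The 10 Study 1 libraries and 2 of the intmiS1 libraries came as STAR tables, and the other 10 as featureCounts tables in which, per the file headers, a read that overlaps several genes counts in each. The reverse-strand column was used for Study 1 and the unstranded column for the 2 intmiS1 libraries. Between 63.6% and 72.0% of the reads in these STAR tables named no gene and were left out of library sizes.

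Counts were filtered with filterByExpr (minimum count 10, minimum total 15), scaled by TMM and tested with edgeR 4.0.16 (quasi-likelihood F test, R 4.3.3), with DESeq2 1.42.0 as an alternative. Study 1 was fitted alone, the 9 libraries of empty capsid, StufferOnly and miSCA7Stuffer together, all 12 Study 2 libraries for intmiS1, and all 22 for differences between studies. Standard errors were approximated from the F statistic, and CPM used TMM within each study. Members that the filter removed were compared by exact permutation of the group labels. Genes near 0 in 1 group could pass the filter through the other group alone. In Study 1 this held for PAX5, IRF4, CD72 and TNFSF13B, with 9, 8, 15 and 20 counts over the vehicle libraries. It also held there for SLAMF7, CXCL10 and ICOS, with 4, 1 and 3 counts. In StufferOnly against empty capsid, CD79B, SLAMF7 and ICOS were among such genes, with 0, 10 and 4 empty capsid counts. These genes were tested because they were high in the treated group, so their calls are not free of that selection. The tests were checked on simulated counts. Python 3.11.15 with matplotlib 3.10.9 drew the figures. The authors' tables hold no gene lengths and no sequence was at hand.

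The 8 genes and all lists were chosen with earlier results of these data known. Named genes are the 8, up to 4 genes of each B lineage list with the smallest p per comparison, and the 5 genes most like MS4A1 and JCHAIN by Pearson's r. CD79A and BLK in StufferOnly, MZB1 and IGKC levels, and genes named at 0 or in the marker lists of other cells, stand outside that rule where they had not the smallest p and were named after their values were seen. Lists share some genes, among them CD40, CXCR5 and TNFRSF17. IGHD, TXNDC5, FKBP11, CD27, TNFSF13, NFKB2 and the IGHG, IGHA and IGLC genes matched no identifier. Alternatives covered the test, the scaling, the filter, each left-out library, the samples in the fit, the strand column, the count program, the replicate number as a block and a share of unmapped reads over 15%; CPM without TMM was added after seeing the data. Between StufferOnly and miSCA7Stuffer, libraries with the same replicate number deviated together from their group means (r of 0.177 to 0.436 in 3 pairs, against -0.356 to 0.234 between different numbers), a hint of pairing from the data alone. Some genes of the lists are not reported here.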

Additional observations from a re-analysis of the deposited data

Results flagged for a closer look

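In the groups of 4 or 6 libraries, 16 gene-by-group sets were checked for a library far from the others, and 3 were flagged, all in vehicle. The check's nominal chance rate of about 1 in 20 is meant for normally distributed values. It does not hold for counts this low, so the number of flags cannot be set against it. JCHAIN measured 41.3 CPM in vehicle replicate 2, against 3.91 CPM in the next highest vehicle library. IGHM measured 144.5 CPM in the same library, against 11.5 CPM in the next highest. Both rest on few reads, 4 of JCHAIN and 14 of IGHM among 87741 counts, and IGKC stood at 154.8 CPM there. CD79B measured 0.559 CPM in vehicle replicate 3, which is 2 counts, while the other 3 vehicle libraries had none. Beside libraries without a count, any read in that library would have been flagged.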

How the results depend on the processing

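In Study 1 edgeR called 1004 genes and 5 of the 8 B lineage genes. DESeq2 called 1786 genes. With a share of unmapped reads over 15% as a covariate 148 genes and 0 of the 8 were called, and within the 5 libraries over 15% 123 genes and 0 of the 8, where the log2 fold change of CXCL12 was -0.18. Leaving out each library in turn gave 0 to 2300 genes and 0 to 6 of the 8, with the most of both without AAV.miS1 replicate 5. The mean difference was 1.83 to 2.80 CPM for CD79B without each library, where omission of AAV.miS1 replicate 3 took the exact permutation p to 0.0317. It was 3.09 to 5.79 CPM for MS4A1, whose exact permutation p was then 0.0556 to 0.131.

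For StufferOnly against empty capsid edgeR called 3219 genes, DESeq2 5329 and edgeR with only the 2 groups compared 6314. Without each library in turn it called 0 to 2593 genes and 0 to 6 of the 8. For miSCA7Stuffer against empty capsid it called 1 gene, DESeq2 2339 and 5 of the 8, and edgeR with the 2 groups alone 0 genes. Without each library it called 0 to 6982 genes and 0 to 5 of the 8, and the log2 fold change of MS4A1 ran from -1.63 to 1.07, below 0 without miSCA7Stuffer replicate 3. For miSCA7Stuffer against StufferOnly edgeR called 0 genes, DESeq2 476 with 1 of the 8, and edgeR without the filter on low counts 1 gene. Without each library it called 0 to 343 genes, the highest without miSCA7Stuffer replicate 1.

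For intmiS1 against empty capsid edgeR called 0 genes, DESeq2 52 and edgeR with the 2 groups alone 1. With only the STAR intmiS1 libraries, which is also the fit without replicate 3, it called 1853 genes and 1 of the 8, CD72. Without each library the counts were 0 to 1853 genes and 0 to 1 of the 8, and log2 fold changes ran from -0.26 to 2.98 for IRF4, from -2.29 to 6.74 for IGHM and from -0.56 to 0.31 for MS4A1. With only the featureCounts intmiS1 library the log2 fold changes that turned were -0.45 for IRF4, -2.41 for IGHM, 0.19 for CD72, -0.15 for TNFSF13B, -1.19 for CXCL10 and 0.0678 for LTA. For intmiS1 against StufferOnly edgeR called 2554 genes and 2 of the 8, and DESeq2 4244 and 5. The featureCounts library alone gave 0 genes and 0 of the 8, and the STAR libraries alone 3832 genes. Without each library the counts were 132 to 3832 genes and 0 to 2 of the 8.

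For the effect of AAV.miS1 minus that of StufferOnly, DESeq2 called 17 genes where edgeR called 0. With the unstranded column of Study 1 the difference of TNFRSF17 turned to -1.90, and without each library those of TNFSF13B, CCR7 and FCRL1 ran from -0.0805 to 0.582, from -8.99 to 0.12 and from -7.67 to 2.84 on the log2 scale. For the effect of AAV.miS1 minus that of intmiS1 edgeR called 1 gene, DESeq2 400 genes and 1 of the 8, and edgeR 0 without the filter, with the reverse-strand column of the STAR intmiS1 tables or with only the featureCounts library. With only the STAR libraries it called 872 genes and 1 of the 8, and without each library 0 to 872 genes and 0 to 1 of the 8. The difference of IGHM was 0.22, against -1.30 by DESeq2, -0.34 with the STAR libraries and -0.66 to 8.65 without each library, and that of TNFRSF17 was -0.0652 with the unstranded column. For the results that changed here, the cause was not tested.

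With the replicate number as a block in Study 2, edgeR called 4 of the 8 genes lower in intmiS1 than in StufferOnly (PAX5, TNFSF13B, CD72 and JCHAIN) in place of 2, and changed no other count of the 8. Over all pairs of groups, deviations from the group means correlated at -0.0981 to 0.436 in the 18 pairs of libraries with the same number, 5 of them over 0.1. Between StufferOnly and miSCA7Stuffer all 3 such pairs were over 0.1, and there 0 genes were called with and without the block. In no other pair of groups were all 3 over 0.1, so the numbers were not taken to pair those animals.

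Depth limited CD79B and MS4A1 in Study 1, where vehicle held 0 to 2 counts per library. In vehicle replicate 2 it limited every gene of the set, IGHM and JCHAIN included. Study 1 and the STAR and featureCounts tables of Study 2 differ in depth, strand and count program, so differences between them cannot be told apart from these. Fits that leave 1 intmiS1 library assume that it varies like the other groups.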
